A study of Mus musculus with 12 samples.

Results

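The genes described here are the insulin-like growth factor (IGF) ligands Igf1 and Igf2, the receptors Igf1r and Igf2r, and the binding proteins Igfbp2, Igfbp3, Igfbp4, Igfbp5 and Igfbp7. They were listed by symbol, and all 9 were found among the 31053 genes of the matrix. Nuclei were taken from the forelimb field of motor cortex (caudal forelimb area, right hemisphere) of 6 mice aged 13 weeks, whose strain is not given in the sources used here. All mice were held on restricted water. The 3 control mice (1, 3 and 5) took it in the home cage throughout, and the 3 trained mice (2, 4 and 6) were head-fixed on days 11 to 13 and pressed a lever with the left paw for part of it, in sessions of 100 trials. The control mice are not described as head-fixed, so training, head fixation and reward cannot be told apart.

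IGF1 is a secreted growth factor that in the brain acts on neurons, glia and vessels. It binds the receptor tyrosine kinase encoded by Igf1r, which signals through insulin receptor substrates to the PI3 kinase and MAP kinase cascades. Igf2r encodes a scavenger receptor that carries IGF2 and mannose-6-phosphate-tagged enzymes to lysosomes and lacks kinase activity. The binding proteins hold IGFs in the extracellular fluid, and proteases such as PAPP-A cut some of them and free the ligand. Igfbp7 encodes a related protein of vessel walls that binds IGFs weakly.

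Nuclear RNA was read in droplets from its 3' ends, which counts unique molecular identifiers (UMIs), 1 per captured molecule. The mice had between 46798359 and 91495029 UMIs, and 49243 of 51926 nuclear barcodes were kept, between 5261 and 11803 per mouse, at median depths of 5212 to 7205 UMIs per nucleus. Clustering, done without the 9 genes, gave 26 classes, each named for marker genes and to be read as "-like". IT, ET, NP and CT stand for intratelencephalic, extratelencephalic, near-projecting and corticothalamic neurons, OPC for oligodendrocyte precursors, SMC for smooth muscle cells and VLMC for vascular and leptomeningeal cells. The own marker list had its highest summed level in the class itself for 18 of 22 named classes, and not for L4/5 IT, L5 IT, L6 IT and Sst. Clusters 10, 18, 22 and 25 met no name. Cluster 18 held 405 nuclei, of which 392 came from trained mouse 6, and 311 barcode sequences occurred in more than 1 mouse. The 19 classes with at least 20 nuclei in every mouse were fitted.

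Over all kept nuclei the counts were 7815 UMIs for Igf1, 15 for Igf2, 80679 for Igf1r, 7332 for Igf2r, 2112 for Igfbp2, 743 for Igfbp3, 8442 for Igfbp4, 3982 for Igfbp5 and 6911 for Igfbp7. The precision of each level below is set by these counts, and Igf2 was near the limit of detection. Levels are given as CPM, the count of a gene scaled to 1e6 UMIs of its class, scaled by the TMM method in fitted classes and unscaled in the others, as mean ± SD over 6 mice. A 3' count is not divided by transcript length, but intronic priming may favour long genes, so levels were compared between classes and not between genes. The genes lie at chr10:87858265-87937042 (Igf1, plus strand), chr7:142650766-142666816 (Igf2, minus), chr7:67952827-68233668 (Igf1r, plus), chr17:12682406-12769664 (Igf2r, minus), chr1:72824503-72852474 (Igfbp2, plus), chr11:7206086-7213923 (Igfbp3, minus), chr11:99041244-99054392 (Igfbp4, plus), chr1:72857932-72874884 (Igfbp5, minus) and chr5:77349240-77408041 (Igfbp7, minus) of mm10. Igfbp2 and Igfbp5 are neighbours that converge, with 5457 bp between them.

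The 5' sequences of 4 members are shown, because these are the members whose level differed between nuclei with and without immediate early transcripts (described further on) and whose upstream bases lie outside annotated exons. They are the bases that precede the start annotated by RefSeq, build GRCm38.p6, 5' to 3' on the gene's strand, and all 9 members had an entry. This start need not be the gene end given above, which is from GENCODE M21. The Igf1r window ends at 67952256, where the gene above starts at 67952827. The Igf2r window begins at 12769707, where the gene above ends at 12769664. Capitals mark TATAAA (the TATA box) and CACGTG (an E-box). The window of Igf1, the remaining such member, lies wholly in annotated exons (250 of 250 bases) and is not shown, and 19 exonic bases were removed from that of Igfbp5.
Igfbp5, chr1:72874885-72875115, minus strand: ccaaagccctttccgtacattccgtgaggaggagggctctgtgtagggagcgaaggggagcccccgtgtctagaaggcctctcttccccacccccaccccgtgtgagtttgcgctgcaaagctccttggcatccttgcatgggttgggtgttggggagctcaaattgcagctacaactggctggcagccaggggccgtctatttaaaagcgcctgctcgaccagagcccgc
Igf1r, chr7:67952007-67952256, plus strand: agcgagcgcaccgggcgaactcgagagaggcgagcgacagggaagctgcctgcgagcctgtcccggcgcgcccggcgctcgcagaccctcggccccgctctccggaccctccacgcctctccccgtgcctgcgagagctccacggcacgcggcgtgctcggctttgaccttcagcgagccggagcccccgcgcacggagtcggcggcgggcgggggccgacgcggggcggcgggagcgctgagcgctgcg
Igf2r, chr17:12769707-12769956, minus strand: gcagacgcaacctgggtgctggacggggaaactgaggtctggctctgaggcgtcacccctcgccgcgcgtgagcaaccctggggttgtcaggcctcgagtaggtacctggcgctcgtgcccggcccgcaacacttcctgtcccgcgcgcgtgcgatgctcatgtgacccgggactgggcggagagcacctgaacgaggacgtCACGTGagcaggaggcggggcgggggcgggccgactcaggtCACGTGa
Igfbp4, chr11:99040994-99041243, plus strand: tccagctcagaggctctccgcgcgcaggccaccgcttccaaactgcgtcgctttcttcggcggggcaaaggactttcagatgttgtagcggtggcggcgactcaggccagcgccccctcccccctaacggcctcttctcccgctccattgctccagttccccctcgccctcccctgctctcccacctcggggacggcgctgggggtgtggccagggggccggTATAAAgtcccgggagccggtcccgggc

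The motifs searched, on both strands, were the cAMP response element TGACGTCA, its shortened form TGACG, the AP-1 element TGANTCA, the TATA box TATAAA and the E-box motif CACGTG. Igfbp4 held 1 TATAAA, which began 28 bases before the start, and 12.4% of 32851 RefSeq windows of 250 bases held one. Igf2r held 2 CACGTG, found in 6.02% of windows, and 2 copies of TGACG, found in 17.8%, 1 of which overlaps an E-box. No TGACGTCA (in 1.55% of all windows) and no TGANTCA (in 6.75%) was found in the 4 windows, and Igfbp5 and Igf1r held none of the 5 motifs. A match describes letters only.

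Igf1, the ligand gene, was highest in GABAergic interneurons. Its level was 543 ± 126 CPM in the Vip class of vasoactive intestinal peptide interneurons, 204 ± 36.4 in Lamp5 interneurons and 84.9 ± 13.8 in Sst (somatostatin) interneurons (SD, n = 6 mice). The Vip nuclei, 2.48% of all nuclei, held 57.6% of the Igf1 UMIs. Pvalb interneurons were far lower at 6.57 ± 1.47 CPM, glutamatergic classes lay between 0.371 and 1.94 CPM, and Microglia were at 3.14 ± 1.65 CPM. Igf1 thus differed among interneurons, whose 4 fitted classes together held 94.5% of its UMIs.

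By mouse, Igf1 in Vip nuclei stood at 421, 531 and 483 CPM in the controls (mice 1, 3 and 5), while the trained animals (mice 2, 4 and 6) had 753, 447 and 625 CPM. In Lamp5 nuclei it was at 161, 218 and 212 CPM in controls and 261, 170 and 202 CPM in trained mice. The 6 Vip values all lay above the 6 Lamp5 values, and these above the 6 Sst values (70.4 to 106 CPM). The small Sst Chodl class (62 nuclei), long-range Sst neurons marked by Chodl and Nos1, reached 100 ± 51.7 CPM, and Macrophage (81 nuclei) 88.2 ± 115 CPM, from 30 UMIs.

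After each nucleus was thinned to 2000 UMIs, 56.4 ± 5.18% of Vip nuclei carried at least 1 Igf1 UMI, against 30.2 ± 3.70% of Lamp5, 15.7 ± 3.07% of Sst and 0.130 ± 0.130% of L2/3 IT nuclei (SD, n = 6). Without thinning the Vip and L2/3 IT shares were 83.1% and 0.625%, at median depths of 5928 and 9327 UMIs. Thinned shares in other classes of low level were 0.632 ± 0.714% in Microglia and 1.09 ± 1.41% in VLMC, and the part of free RNA in such shares was not tested. Finer clustering (Leiden resolution 2) split the interneurons and put Igf1 at 651 ± 194 CPM in the Vip cluster, at 257 ± 40.8 CPM in a cluster led by Adarb2, Ndnf, Frem1, Cnr1 and Reln, with 1 Sncg and 1 Lamp5 marker among its 10 leading genes, and at 68.5 ± 14.4 and 108 ± 16.6 CPM in 2 Sst clusters.

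Igf2, the fetal growth factor, was found in 12 VLMC and 3 Pericyte/SMC UMIs and in no other class. The VLMC UMIs were spread over all 6 mice, at 8.19 ± 3.32 CPM. In the 6057 Astrocyte nuclei a count of 0 allows a share of nuclei with a UMI of up to 0.0495%, and in the 5361 L2/3 IT nuclei up to 0.0560%, by counting error only. An antisense gene, Igf2os, overlaps Igf2 over 7124 bp. Whether counting used the strand is not given in the sources used here, so reads within the overlap cannot be told apart.

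**Figure D1:**
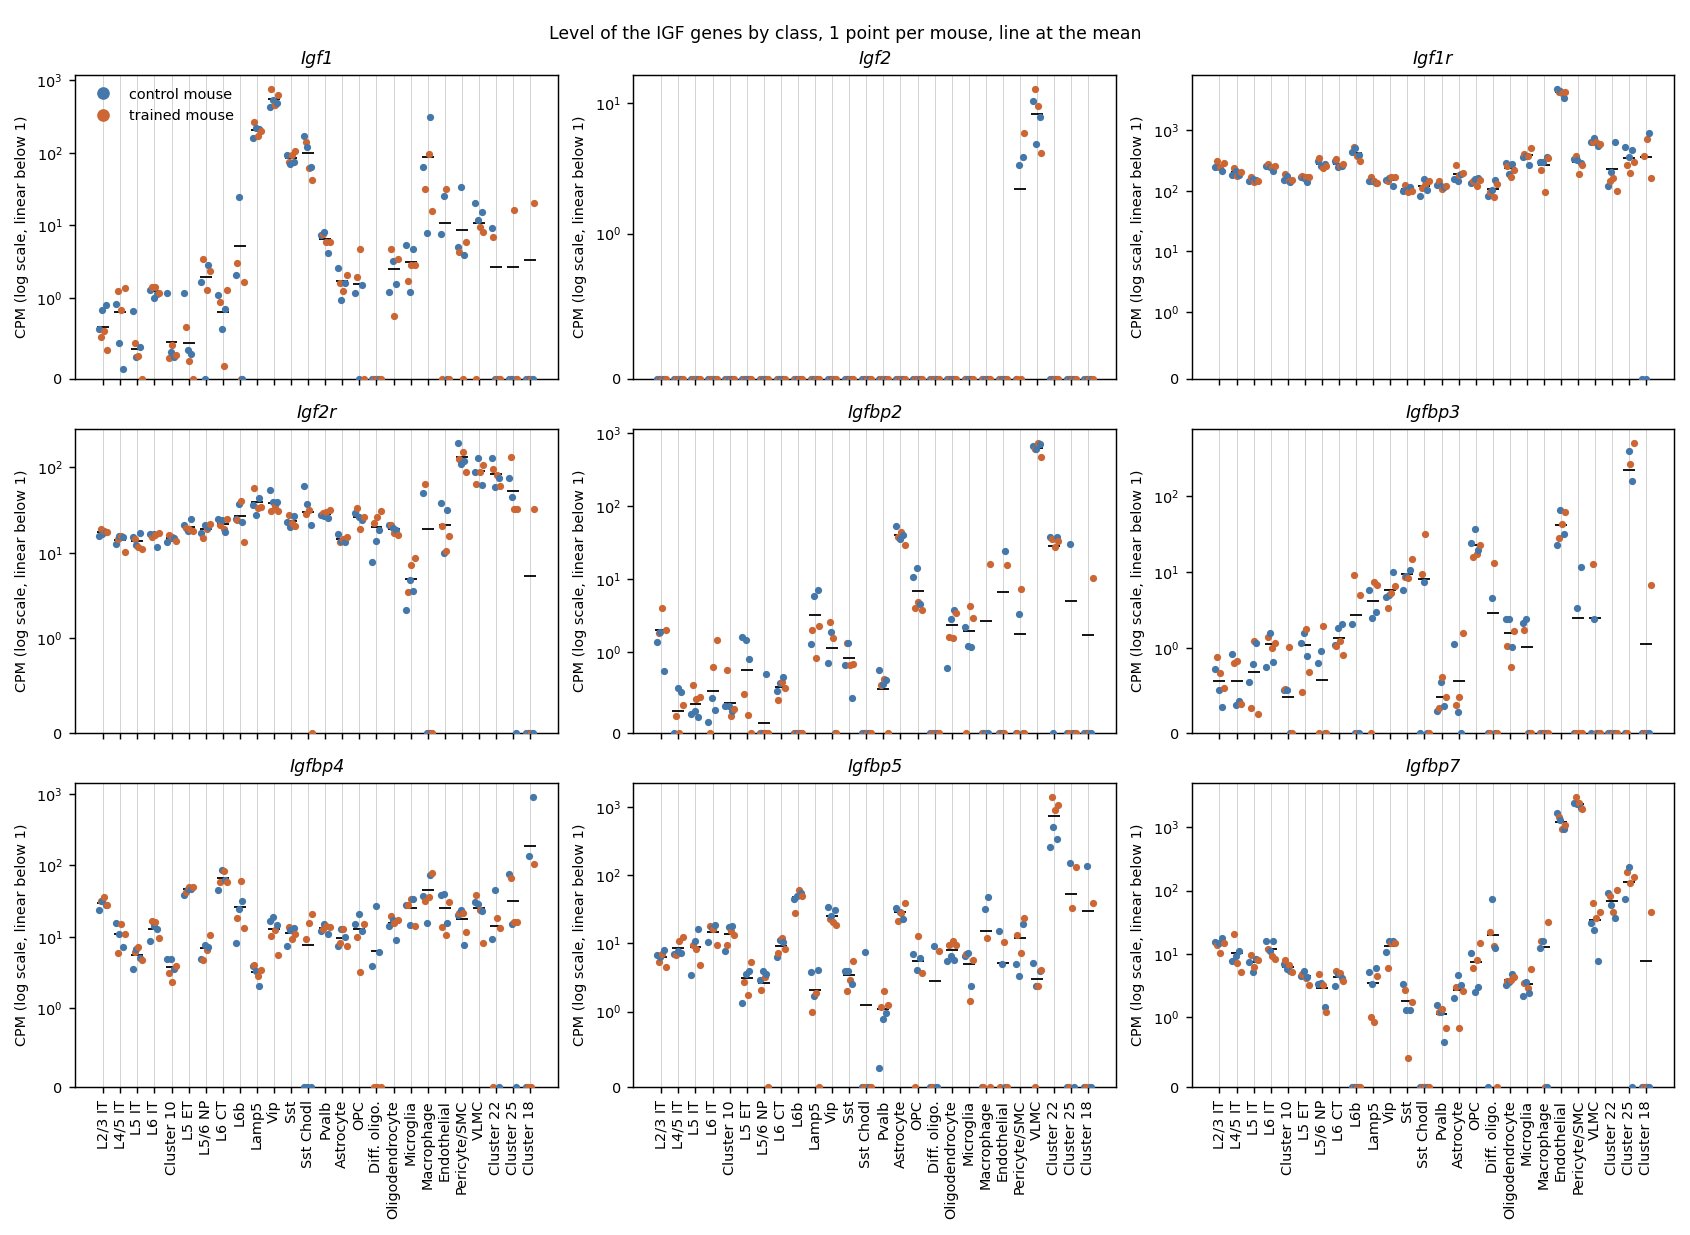
Level of the 9 IGF genes (vertical axes, CPM on a log scale that is linear below 1) in 26 classes, 1 point per mouse and a line at the mean of 6 mice. Igf1 stands highest in Vip (543 CPM), Igf1r in Endothelial (4258 CPM), Igfbp2 in VLMC (626 CPM), Igfbp5 in cluster 22 (740 CPM) and Igfbp7 in Pericyte/SMC (2369 CPM).

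Igf1r, the receptor gene, was detected in every class and was highest in Endothelial nuclei. There it was at 4258 ± 483 CPM, against 637 ± 66.5 in VLMC and 385 ± 80.5 in Microglia, with no overlap between the mice of neighbouring fitted classes in this order. Sst nuclei were lowest of the fitted classes at 106 ± 11.5 CPM. After thinning, 95.2 ± 4.61% of Endothelial and 16.8 ± 2.67% of Sst nuclei carried a UMI. Glutamatergic classes ranged from 152 CPM in L5 IT to 283 CPM in L5/6 NP, interneurons from 106 to 153 CPM, and by their number glutamatergic nuclei held 69.1% of Igf1r UMIs. L6b nuclei (132 nuclei, not fitted) were at 426 ± 82.7 CPM.

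Among fitted classes Igf2r was highest in Pericyte/SMC (132 ± 36.2 CPM) and VLMC (89.5 ± 25.1 CPM), and lowest in Microglia (4.96 ± 2.46 CPM), which lay below L5 IT (13.7 ± 2.31 CPM) in 6 of 6 mice. Lamp5 (38.8 ± 10.9 CPM) and Vip (38.3 ± 8.68 CPM) were next after VLMC among fitted classes and did not differ beyond their spread. After thinning, 22.7 ± 9.38% of Pericyte/SMC and 1.16 ± 1.11% of Microglia nuclei carried a UMI. Airn, the long non-coding RNA transcribed against Igf2r that silences it on the paternal allele in many tissues, overlaps it over 28354 bp. Airn was the gene most like Igf2r across classes. The overlap covers part of the 87259 bp of Igf2r, and with the use of strand not given, reads within it cannot be told apart.

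Among binding proteins, Igfbp2 marked VLMC and, well below them, astrocytes. VLMC were at 626 ± 93.3 CPM, Astrocyte at 39.5 ± 8.15 and OPC at 6.92 ± 4.30 CPM, without overlap between the mice of these classes, while Endothelial and Pericyte/SMC nuclei were at 6.56 ± 10.5 and 1.77 ± 3.01 CPM. After thinning, 45.1 ± 4.89% of VLMC, 7.20 ± 1.50% of Astrocyte and 0.147 ± 0.163% of Pvalb nuclei carried a UMI. Igfbp3, the main carrier of IGFs in serum, was low throughout: 42.1 ± 18.1 CPM in Endothelial, 22.7 ± 7.38 in OPC and 9.54 ± 3.05 in Sst nuclei. Cluster 25, led by Fn1, Prg4 and Dpp4, reached 217 ± 202 CPM from 77 nuclei and 74 UMIs, with values from 0 to 491 CPM between mice.

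Igfbp4, a PAPP-A substrate, was highest in some of the projection neurons. L6 CT nuclei were at 66.1 ± 16.7 CPM, L5 ET at 46.0 ± 4.59 and L2/3 IT at 29.8 ± 4.14 CPM, whereas L5 IT (5.55 ± 1.40) and Lamp5 (3.23 ± 0.735) were low. Microglia (25.5 ± 9.01), VLMC (25.5 ± 10.1) and Endothelial nuclei (25.0 ± 13.1 CPM) overlapped L2/3 IT, above the L6 IT (13.0 ± 3.31), L4/5 IT (11.0 ± 3.98) and L5/6 NP (6.998 ± 2.19 CPM) projection neurons in mean level. L6 CT nuclei held 35.8% of its UMIs, and 13.2 ± 3.20% of them carried a UMI after thinning, against 1.03 ± 0.450% of Lamp5 nuclei. L5 ET lay above L2/3 IT in all mice, and L6 CT overlapped L5 ET. In cluster 18 the mean of 190 ± 353 CPM rested on 65 UMIs and ran from 0 to 899 CPM between mice.

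Igfbp7 was the binding protein of vessel walls. Pericyte/SMC nuclei were at 2369 ± 359 CPM, Endothelial at 1228 ± 292 and VLMC at 34.9 ± 19.1 CPM, with no overlap. These first 2 classes, 1.37% and 0.591% of nuclei, held 44.4% and 13.9% of Igfbp7 UMIs. After thinning, 79.4 ± 11.5% of Pericyte/SMC, 78.3 ± 11.1% of Endothelial and 2.79 ± 0.831% of L2/3 IT nuclei carried a UMI.

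Igfbp5, which binds IGFs and extracellular matrix, was highest in cluster 22 (740 ± 445 CPM, 163 nuclei). Bnc2, Eya2, Slc47a1, Mgp and Prg4 led this cluster. Among fitted classes Astrocyte (28.7 ± 6.38 CPM) and Vip (25.4 ± 5.83 CPM) were highest and Pvalb (1.10 ± 0.563 CPM) lowest, while VLMC were at 2.98 ± 1.81 CPM. The 18 steps between neighbours in the order of the 19 fitted classes all overlapped between mice. After thinning, 56.2 ± 15.1% of cluster 22, 5.00 ± 1.14% of Astrocyte and 0.219 ± 0.180% of Pvalb nuclei carried a UMI.

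Astrocytes fell into 2 clusters that differed in IGF genes, a comparison chosen after the values were seen. In cluster 19 (325 nuclei, led by Myoc, Pdgfd, Aqp4 and Gfap) Igfbp5 was at 116 ± 40.2 CPM, against 24.4 ± 5.30 CPM in cluster 1 (5732 nuclei). The values in cluster 19 were 170, 150 and 126 CPM in controls and 60.9, 95.3 and 94.6 CPM in trained mice, all above the 18.7 to 33.2 CPM of cluster 1. Igfbp2 went the other way, with 3.16 ± 4.93 CPM in cluster 19 and 41.4 ± 9.32 CPM in cluster 1. Igf1r was at 313 ± 64.1 and 183 ± 40.2 CPM. The differences of Igfbp5, Igfbp2 and Igf1r held in 6 of 6 mice. For each, p was 0.03125 by the exact two-sided sign-flip permutation test over mice (the smallest 6 mice allow, unadjusted, 9 genes compared). Igf1 had 0 UMIs in cluster 19 and 30 UMIs (1.78 ± 0.590 CPM) in cluster 1, with the same p. At so low a level the fewer nuclei of cluster 19 could hold 0 UMIs without a difference, so the test cannot decide for Igf1. The clusters were made without the 9 genes but from other genes of the same nuclei.

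Over the 9 genes, neighbours in the order of classes were compared within mice in 162 pairs, and 13 pairs had no overlap between mice. No pair passed Benjamini-Hochberg adjustment (smallest adjusted p = 0.266 by the exact sign-flip permutation test, n = 6 mice), since no p can go below 0.03125. The 13 steps were those between Vip, Lamp5, Sst and VLMC for Igf1, Endothelial, VLMC and Microglia for Igf1r, VLMC and Lamp5, and L5 IT and Microglia, for Igf2r, VLMC, Astrocyte and OPC for Igfbp2, OPC and Sst for Igfbp3, L5 ET and L2/3 IT for Igfbp4, and Pericyte/SMC, Endothelial and VLMC for Igfbp7.

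The genes whose mean log2(CPM + 1) ran most alike over the 19 fitted classes, among 12447 genes, differed by member, and Pearson's r is given as a description. Igf1 ran with Dlx1as (0.92), Dlx1 (0.92) and Dlx6os1 (0.92), all highest in Vip and next in Lamp5. Igf1r ran with Egfl8 (0.93), Alas1 (0.93) and Lsr (0.93), and Igf2r with Airn (0.97), Slc16a12 (0.88) and C1qtnf1 (0.86). Igfbp2 ran with Olfml2a (0.94), Vcam1 (0.94) and Slc22a18 (0.94), and Igfbp7 with Emcn (0.95), Foxf2 (0.95) and Hrct1 (0.95). Likeness was lower for Igfbp3, with Mapk7 (0.81), Pxdc1 (0.80) and Prrt4 (0.80), for Igfbp5, with Fos (0.78), Chst1 (0.72) and Elmo2 (0.67), and for Igfbp4, with Zfp189 (0.71), Nefm (0.71) and Nefl (0.70). Classes of 1 mouse share a library and differ in depth.

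Nuclei with recent activity were compared with silent ones of the same class and mouse. Immediate early genes such as Fos and Arc are switched on within minutes of neuronal activity, and the list scored also held Atf3, Klf4, Cyr61, Dusp1 and others. A nucleus was called active with 3 or more UMIs of the listed genes after thinning to 2000 UMIs, and silent with 0. Astrocyte and Microglia nuclei were scored in the same way, and there the word active stands only for the presence of these transcripts. Sums per mouse were tested by edgeR's quasi-likelihood test with mouse as a block in 10 classes. Of 36 tests of members, 6 passed the adjusted threshold of 0.05, 4 higher and 2 lower in active nuclei (16.7%), against 12.8% of all 79883 gene tests. An unadjusted p under 0.05 was found in 10 of them (27.8%), against 25.0% of all. The members as a group were thus near the background. Their median log2 fold change was -0.07 over tests, and the median of the class medians of all genes was 0.00.

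Igf1 rose in active Vip nuclei. Silent nuclei were at 356, 460 and 423 CPM in the controls (mice 1, 3 and 5), while the trained animals (mice 2, 4 and 6) had 626, 291 and 484 CPM. Active nuclei were at 608, 659 and 508 CPM in controls and 1036, 734 and 825 CPM in trained mice. The active value was higher in 6 of 6 mice, although the ranges over mice overlap, and the log2 fold change was 0.74 ± 0.11 (SE; edgeR adjusted p = 1.2e-05), where 13.5% of genes tested in Vip nuclei were called.

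Subtype markers of the Vip class differed between the same nuclei. The summed level of the 5 Vip markers was 3461 to 5712 CPM in active and 1089 to 2238 CPM in silent nuclei. Vip itself was 1.40 ± 0.10 and Tac2 2.29 ± 0.13 higher on the log2 scale, while Calb2 was at 0.01 ± 0.24. The 5 Sncg markers summed to 837 to 1307 against 1243 to 1876 CPM, with Cnr1 lower by 0.53 ± 0.11 and Npas1 by 0.92 ± 0.17. Cck was at -0.14 ± 0.14 and did not pass. The 239 active nuclei had median depths of 4310 to 6375 UMIs per mouse, and the 457 silent ones of 5990 to 8441 UMIs. In the finer clustering, where the cluster led by Adarb2, Ndnf and Cnr1 stood apart, Igf1 was higher in active nuclei of the Vip cluster, by 0.60 ± 0.13 (adjusted p = 0.0017, an alternative added after seeing the data). There Vip was higher by 0.82 ± 0.09 and Tac2 by 1.88 ± 0.15, while Calb2 was at -0.59 ± 0.22 (edgeR adjusted p = 0.102). Of the Sncg markers Cnr1 was also higher (0.50 ± 0.12). Cck was at 0.61 ± 0.20 (edgeR adjusted p = 0.054) and Npas1 at -0.31 ± 0.21 (adjusted p = 0.417). The part of subtype in the Igf1 difference within that cluster was not tested.

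The other differences lay in glutamatergic classes. In active L6 CT nuclei Igf1r fell by 0.37 ± 0.05 on the log2 scale (edgeR adjusted p = 2.0e-06), from 359, 265 and 305 CPM in silent nuclei of controls to 265, 234 and 230 CPM, and from 395, 310 and 308 CPM to 298, 239 and 233 CPM in trained mice. It was lower in 6 of 6 mice. In this class 26.1% of genes were called. Of the 5 L6 CT markers 4 were lower in active nuclei as well, with a sum of 4123 to 5056 against 4798 to 6107 CPM. Markers of other types were also called there. L5 IT and L6 IT each had 1 higher and 2 lower, L4/5 IT and L5/6 NP each 1 lower, and L6b 1 higher. Median depths per mouse were 6652 to 9044 UMIs in active and 7015.5 to 11543 UMIs in silent nuclei of this class. The part of depth and class makeup in the difference was not tested. In L2/3 IT, L5 IT, L6 IT and Cluster 10 nuclei the log2 differences of Igf1r were between -0.13 and -0.01, and none passed.

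Igfbp5 rose in active L4/5 IT nuclei by 1.15 ± 0.30 (adjusted p = 0.0078, where 13.9% of genes were called). Silent nuclei were at 5.25, 4.92 and 0 CPM in controls and 3.40, 11.8 and 4.69 CPM in trained mice. Active nuclei were at 14.0, 6.80 and 8.48 CPM and at 10.9, 13.4 and 13.3 CPM, higher in 6 of 6 mice, from 128 UMIs against 38. Among markers, 1 of L4/5 IT was called higher in these active nuclei, and 1 of L2/3 IT and 1 of L6 CT lower. The Igfbp5 call was kept in the 5 fits that left out mouse 1, 2, 3, 5 or 6 (largest adjusted p = 0.040), and without mouse 4 the gene was too low to be tested. In L2/3 IT, L5 IT, L6 IT and Astrocyte nuclei the log2 differences of Igfbp5 were between -0.29 and 0.08, and none passed.

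In active L6 CT nuclei Igfbp5 also rose, by 0.60 ± 0.21 (adjusted p = 0.031), from 7.15 ± 1.41 to 11.4 ± 3.43 CPM, higher in 6 of 6 mice. Igfbp4 rose there by 0.25 ± 0.09 (adjusted p = 0.037), from 60.7 ± 11.5 to 72.5 ± 20.1 CPM in 5 of 6 mice. Igf2r fell by 0.48 ± 0.15 (adjusted p = 0.0146), from 24.9 ± 5.21 to 17.97 ± 4.38 CPM in 5 of 6 mice, beside Airn, which fell by 0.96 ± 0.13. These 3 calls were weak: Igfbp5 lost it without mouse 3, 4, 5 or 6 (adjusted p 0.053 to 0.089), Igfbp4 without mouse 2, 3 or 4 (0.091 to 0.169) and Igf2r without mouse 1, 3 or 6 (0.064 to 0.101). All 3 also missed the threshold when 2 immediate early UMIs sufficed (adjusted p 0.064 to 0.088).

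**Figure D2:**
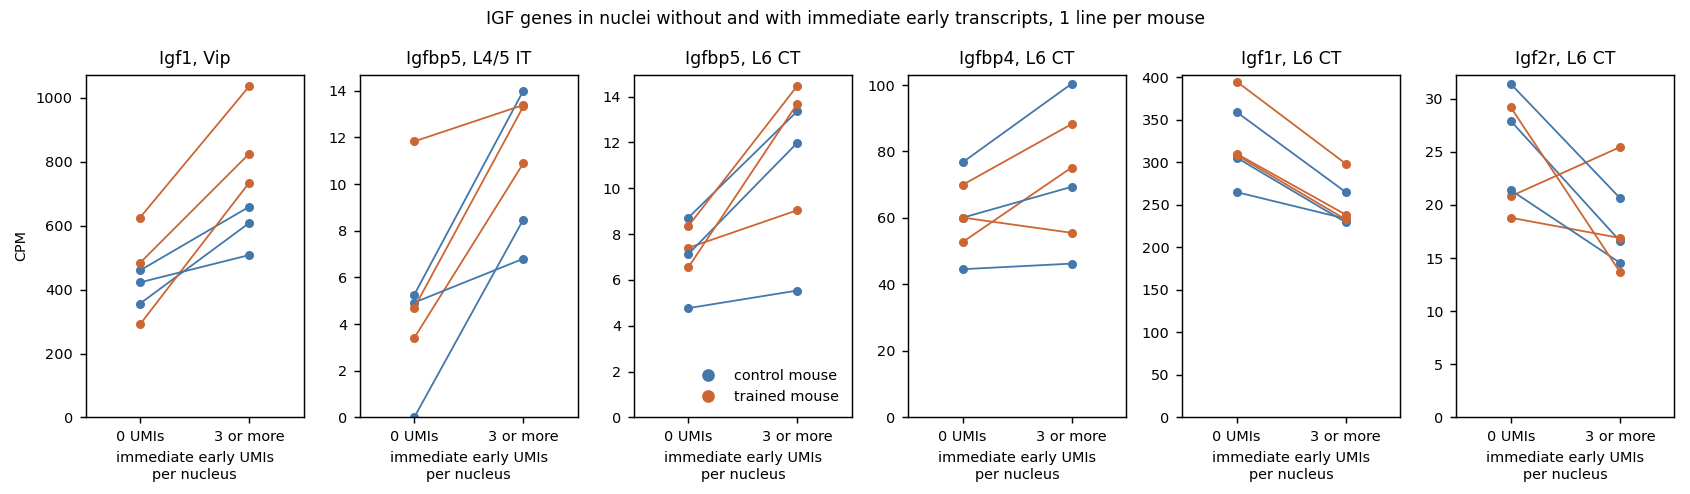
Level (CPM, linear axes from 0) of the 6 member and class pairs that passed the test, in nuclei with 0 and with 3 or more immediate early UMIs, 1 line per mouse. Igf1 in Vip rises in each of the 6 mice and Igf1r in L6 CT falls in each, while 1 line of Igfbp4 and 1 of Igf2r run against the others.

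A further 4 pairs had an unadjusted edgeR p under 0.05 and did not pass. They were Igfbp5 in Cluster 10 (0.70 ± 0.23, adjusted p = 0.060), Igf2r in L2/3 IT (-0.42 ± 0.16, adjusted p = 0.054), Igf1r in L4/5 IT (-0.18 ± 0.07, adjusted p = 0.064) and Igf1r in L5 ET (-0.18 ± 0.09, adjusted p = 0.252). Igf1r and Igfbp2 in Astrocyte nuclei were at 0.00 ± 0.12 and 0.12 ± 0.24.

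Of the wider pathway, 3 lists with 58 genes were followed. In active nuclei 52 of their 350 tests passed, 33 higher and 19 lower (14.9%), again near the background. Irs2, which couples these receptors to PI3 kinase, rose in 8 of 9 classes tested, with differences of 0.57 to 2.21 over all 9. Rheb, the GTPase that activates mTORC1, rose in 8 of 9, with 0.38 to 1.67. Grb14, an adaptor that inhibits these receptors, fell in 5 of 8, and by 1.58 ± 0.28 in Vip nuclei. Of the list of further binding and cleaving proteins, 5 of 16 tests passed (31.2%, against the 12.8% of all gene tests), all higher, among them Igfbp6 in L6 CT (0.93 ± 0.11, adjusted p = 3.6e-08), Pappa2 in L6 CT (0.71 ± 0.17, adjusted p = 0.0015) and Htra1 in Vip nuclei (0.84 ± 0.17, adjusted p = 0.00050). These 16 tests came from only 3 genes, repeated over classes, and in L6 CT nuclei 26.1% of all genes were called.
Other genes with calls included Akt1, Foxo3, Grb2 and Jak2, higher, and Airn, Ghr, Irs1, Pik3ca, Shc3, Socs2 and Stat5b, lower, each in 1 to 3 classes.

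Training was compared between 3 trained and 3 control mice within each class by edgeR's quasi-likelihood test. No member passed in any class by edgeR or by DESeq2. Of 80 tests (8 genes, Igf2 being too low to test) 10 had an unadjusted p under 0.05 (12.5%), against 4.01% of all 197414 tests (DESeq2 gave 1), of which 42 passed adjustment (0.0213%). Trained and control mice did not overlap in 8 of the 80 tests (10.0%), against 9.29% of all tests. The median log2 difference was 0.02 over the member tests, and the median of the class medians of all genes was 0.00. Each value below is therefore a difference that did not pass.

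Igf1r was at 157, 145 and 189 CPM in Astrocyte nuclei of controls and 263, 182 and 197 CPM in trained mice (log2 difference 0.39 ± 0.15, edgeR adjusted p = 0.498). In L2/3 IT nuclei it was at 248, 250.1 and 216 against 307, 250.9 and 285 CPM (0.24 ± 0.10, adjusted p = 1.00). In Microglia it was at 367, 380.2 and 267 against 403, 373 and 518 CPM (0.33 ± 0.15, adjusted p = 0.814). The groups overlapped in Astrocyte and Microglia nuclei and were apart by less than 1 CPM in L2/3 IT.

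Vip nuclei gave 4 of the 10 pairs. Igf1 was at 421, 531 and 483 CPM in controls and 753, 447 and 625 CPM in trained mice, which overlap (0.35 ± 0.16, adjusted p = 0.998). Igfbp5 was at 33.8, 25.5 and 30.6 against 22.9, 20.8 and 18.7 CPM (-0.53 ± 0.22). Igfbp4 was at 16.5, 18.6 and 14.4 against 10.2, 12.3 and 5.61 CPM (-0.80 ± 0.33), from 118 UMIs in all. Igf2r was at 54.1, 39.2 and 39.6 against 30.5, 35.5 and 30.8 CPM (-0.48 ± 0.20). In these 3 genes every trained mouse lay below every control, where 9.18% of genes in the class did not overlap, and the adjusted p was 0.998 for each. The summed Sst markers also did not overlap in this class, at 340 to 374 CPM in controls and 226 to 318 in trained mice, nor did the Lamp5 markers, which went the other way, at 33.8 to 35.4 and 43.9 to 53.2 CPM. The Vip markers overlapped, at 2080 to 3236 and 2032 to 2584 CPM. The part of class makeup was not tested.

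The last 3 pairs were Igfbp5 in Oligodendrocyte nuclei, Igfbp7 in L6 IT nuclei and Igfbp2 in L2/3 IT nuclei. Igfbp5 was at 5.59, 6.45 and 5.80 CPM in controls and 9.58, 10.9 and 9.42 CPM in trained mice, which do not overlap (0.73 ± 0.32, adjusted p = 0.987, 84 UMIs in all). Igfbp7 was at 16.0, 11.1 and 16.0 against 11.8, 9.17 and 8.27 CPM (-0.53 ± 0.22, adjusted p = 0.999). Igfbp2 was at 1.37, 1.88 and 0.765 against 1.80, 4.01 and 1.97 CPM (0.91 ± 0.40, adjusted p = 1.00). The last 2 overlap, and Igfbp2 there is at a level where a few UMIs decide the value.

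**Figure D3:**
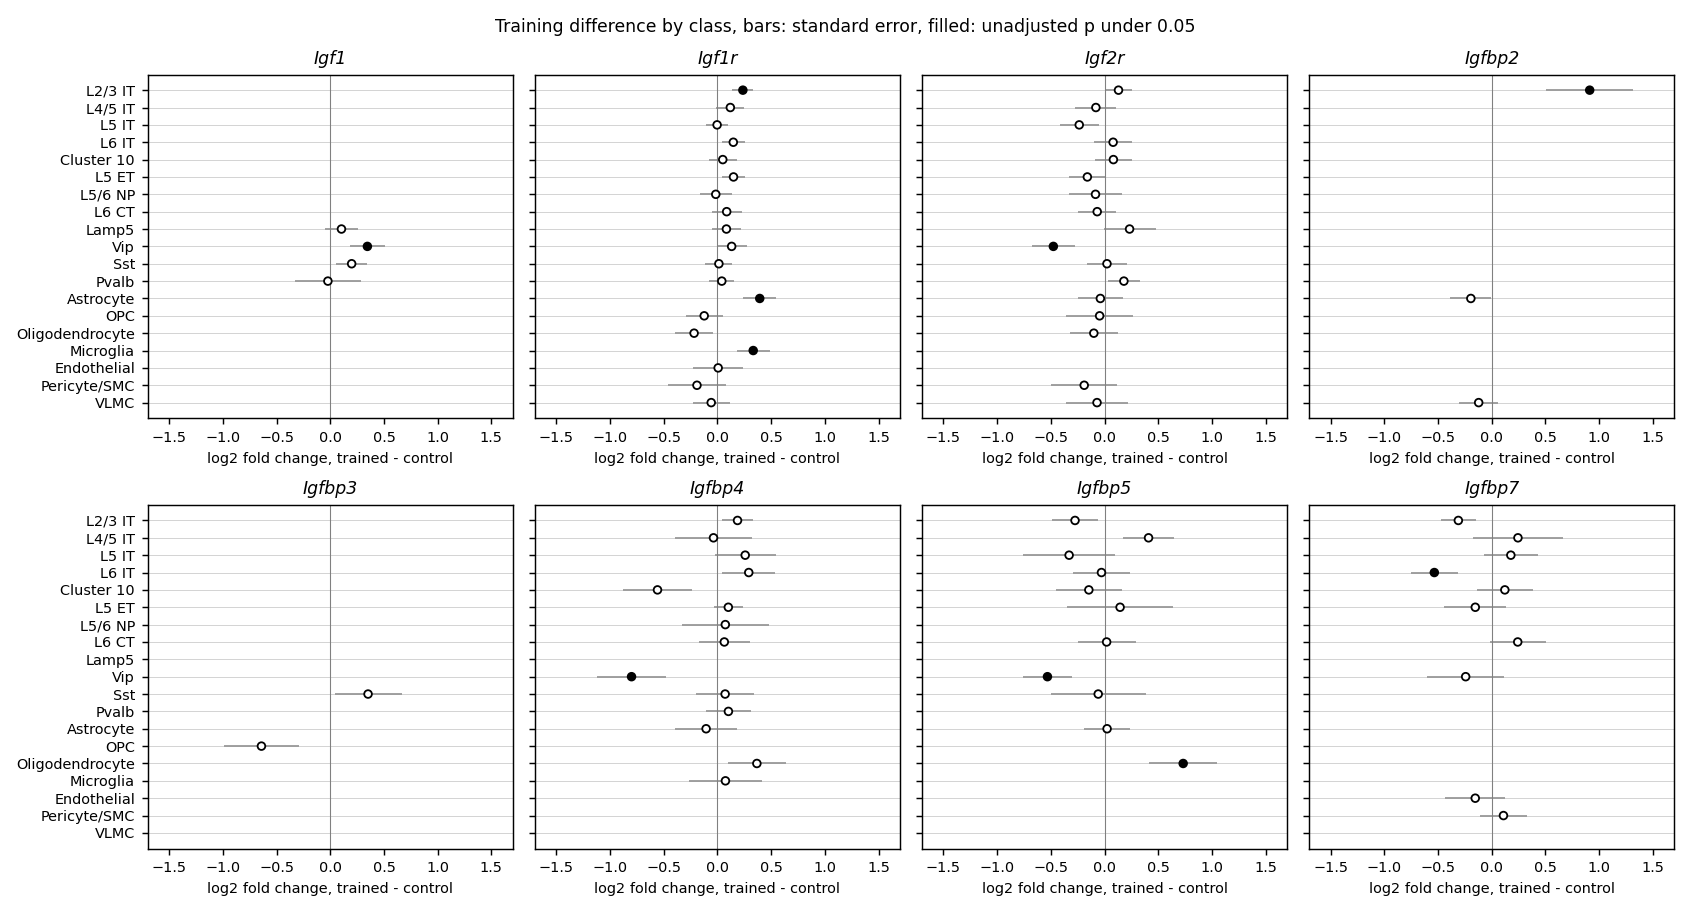
Log2 fold change of trained over control mice (horizontal axes) for 8 IGF genes in each class where the gene passed the low-count filter, with the standard error as a bar. Filled points are the 10 pairs with an unadjusted p under 0.05, none of which passed adjustment, and the points spread to both sides of 0.

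Over all nuclei together 8 members were tested and none passed or had an unadjusted p under 0.05, against 3.27% of 19540 genes. The nearest were Igfbp5 (0.30 ± 0.14, 8.09, 10.9 and 10.7 against 11.3, 11.7 and 13.6 CPM) and Igf1 (0.30 ± 0.14, 20.4, 18.7 and 18.8 against 24.8, 18.6 and 27.7 CPM). The groups were apart for Igfbp5, as they were for 8.43% of genes, and overlapped for Igf1. In such sums a larger share of nuclei of a type and more RNA per nucleus cannot be told apart.

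Igfbp5 in cluster 22 was followed as an addition after seeing the data, since that cluster had too few nuclei for the planned comparison. The 3 controls had 26, 22 and 5 nuclei with 28, 34 and 9 Igfbp5 UMIs, and the 3 trained mice 32, 36 and 42 nuclei with 200, 98 and 158 UMIs. The levels were 249, 493 and 320 CPM in controls and 1370, 927 and 1160 CPM in trained mice. All trained mice lay above all controls, as was so for 7.90% of the 2152 genes tested there. The log2 difference was 1.72 ± 0.31 and did not pass with edgeR (adjusted p = 0.110). DESeq2 gave adjusted p = 0.034 and edgeR without the low-count filter 0.0020, and leaving out each mouse gave 0.057 to 0.537. One nucleus held 27.2% of the Igfbp5 UMIs of trained mouse 6.

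Marker lists in the same nuclei are given beside it. Of 6 VLMC markers, all but Slc6a13 were detected, and they summed to 178 to 311 CPM in controls and 389 to 623 in trained mice. Arachnoid markers (Aldh1a2 at 0 of 7) overlapped, at 1458 to 2117 and 1247 to 2458 CPM, as did dural markers (Dkk2 at 0 of 5), at 2026 to 4466 and 3878 to 5698 CPM. Of the 6 pial markers Lama1, Ngfr and Col15a1 were at 0. Lists of other cell types that did not overlap and were higher in trained mice were L6 IT (107 to 240 and 303 to 548 CPM), L2/3 IT (35.5 to 124 and 140 to 180 CPM, Otof at 0), Sncg (35.5 to 107 and 164 to 206 CPM, Sncg itself and Krt73 at 0), Vip (0 to 14.5 and 22.03 to 206 CPM) and Macrophage (0 and 9.46 to 14.7 CPM, with all but Lyve1 of 6 markers at 0). The list of differentiating oligodendrocytes was lower, at 449 to 498 and 315 to 340 CPM. The part of cluster makeup in the difference was not tested. When VLMC and clusters 22 and 25 were joined, Igfbp5 was at 90.8, 81.8 and 33.9 CPM in controls and 835, 169 and 374 CPM in trained mice (2.66 ± 0.50, adjusted p = 0.267). The share of cluster 22 in that group was 25.0, 9.17 and 4.63% in controls and 47.8, 15.4 and 28.4% in trained mice, which overlap, and its part in the joined level was not tested. The joined value passed without trained mouse 4 (3.10 ± 0.39, adjusted p = 0.0058), with DESeq2 (adjusted p = 0.049) and without the low-count filter (1.8e-20). It was smaller with median depth as a covariate (1.65 ± 0.39, adjusted p = 0.724) and without trained mouse 2 (1.91 ± 0.35, adjusted p = 0.142).

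**Figure D4:**
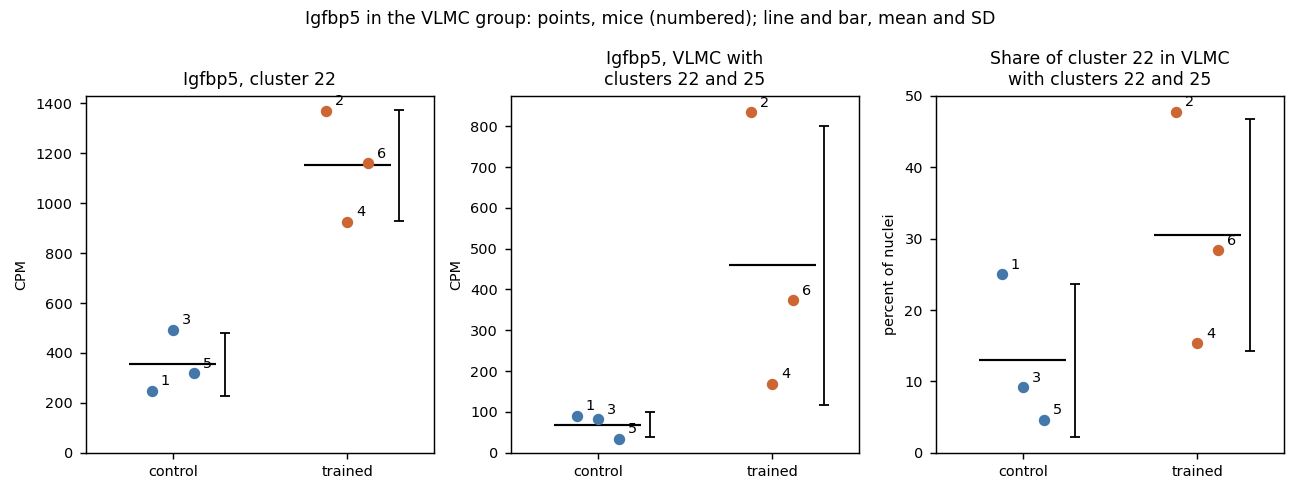
Igfbp5 in cluster 22, Igfbp5 in VLMC joined with clusters 22 and 25 (both CPM), and the share of cluster 22 in that joined group (percent of nuclei), with 1 numbered point per mouse, a line at the mean and a bar of 1 SD (n = 3 per group). Trained mice lie at 927 CPM or more in cluster 22 and controls at 493 or less, while the shares overlap.

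Whether the training difference of a class differed from that of all other nuclei of the same mice was tested as an interaction with mouse as a block. Of 154 member tests 17 had an unadjusted p under 0.05 (11.0%), against 4.92% of all genes, and none passed, where 314 of 341413 gene tests did (0.0920%). The smallest adjusted p was that of Igfbp5 in Vip nuclei (-0.93 ± 0.25, adjusted p = 0.061), followed by Igfbp4 in the same class (-0.94 ± 0.31, adjusted p = 0.257). The others, by class, were Igf1r in L2/3 IT (0.21), Astrocyte (0.32) and Oligodendrocyte (-0.35), Igf2r in Vip (-0.49), Igfbp2 in L5 ET (-2.22), L2/3 IT (0.92) and OPC (-1.39), Igfbp4 in OPC (-1.21) and Cluster 10 (-0.70), Igfbp5 in L2/3 IT (-0.61), Lamp5 (-2.003) and Cluster 10 (-0.46), Igfbp7 in VLMC (1.26) and L6 IT (-0.52), and Igf1 in Pericyte/SMC (-2.46), with adjusted p from 0.539 to 1.00. The largest of these differences lay at low levels, with means of 0.777 CPM (Igfbp2 in L5 ET), 2.06 (Igfbp5 in Lamp5) and 8.77 CPM (Igf1 in Pericyte/SMC). Their standard errors were 0.73, 0.88 and 1.01. Without control mouse 3, Igfbp5 in Vip passed (-1.14, adjusted p = 0.026), as did Igf1r in Oligodendrocyte (-0.55, adjusted p = 0.031).

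In the wider pathway 28 of 752 training tests had an unadjusted p under 0.05 (3.72%) and 2 passed (0.228% of genes passed in Astrocyte nuclei), both higher in Astrocyte nuclei of trained mice and both downstream of the receptor. Irs2 was at 31.2, 33.5 and 25.5 CPM in controls and 124, 69.2 and 113 CPM in trained mice (1.75 ± 0.20, edgeR adjusted p = 0.0014). Foxo1, the transcription factor that insulin and IGF signalling keeps out of the nucleus, was at 212, 231 and 187 against 369, 329 and 430 CPM (0.84 ± 0.14, adjusted p = 0.015), and it missed the threshold without mouse 1, 2, 5 or 6 (adjusted p 0.052 to 0.159). The next 3 by p did not pass: Foxo3 in VLMC (0.94 ± 0.24, adjusted p = 0.244), Grb14 in Endothelial (-1.56 ± 0.37, adjusted p = 0.709) and Foxo3 in Astrocyte nuclei (0.69 ± 0.18, adjusted p = 0.200).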

How the data were processed

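Per the labels, nuclei of 6 mice were captured with the 10x Genomics 3' kit (v3.1) and sequenced in a shallow and a deep run, which the deposited matrix joins, so each mouse is 1 replicate. The authors deposited raw UMI counts, whole numbers for each gene in each nucleus, made with Cell Ranger 4.0.0 on mm10 per the submitters' processing notes. For intron counting and strand, the settings were not given in the sources used here; barcode and gene lists hold no measurement. Barcodes with at least 500 genes and under 5% mitochondrial UMIs passed (243 did not), and Scrublet doublets (2440) were left out. Nuclei were clustered with scanpy 1.11.5 (30 components, 20 neighbours, Leiden resolution 1), and clusters took the name with most markers among their leading genes. Counts were summed per mouse and class and tested with edgeR 4.0.16 (TMM, filterByExpr, quasi-likelihood) in R 4.3.3, with Benjamini-Hochberg adjustment over all genes of a class. CPM, fold changes and standard errors were computed from these sums. DESeq2 1.42.0, other scaling, filters, clusterings, thinning and leaving out mice were alternatives. Activity tests left out 9022 nuclei under 2000 UMIs and the immediate early genes. Tests were checked on simulated data. Text values follow a rule: all members by class, each with an unadjusted p under 0.05 by mouse or by value, pathway genes past the threshold plus the 5 smallest p, and the 3 most like genes (at least 10 CPM). The members and lists were chosen with earlier results of these data known. Some pathway genes are counted but not reported by name here. Gene positions are from GENCODE M21.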

Additional observations from a re-analysis of the deposited data

Results flagged for a closer look

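In 6 of 965 tests the training difference of a pathway gene in 1 class differed from that in the other nuclei of the same mice. This was 0.622% by the interaction test of edgeR with mouse as a block, against 0.0920% of all 341413 gene tests. In Astrocyte nuclei 0.541% of 18291 genes were called. The log2 difference of differences was 1.65 ± 0.20 for Irs2 in Astrocyte nuclei (adjusted p = 1.7e-06), with means of 30.1 CPM in controls and 102 CPM after training, against 33.3 and 34.6 CPM in the other nuclei. It was 0.97 ± 0.15 for Foxo1 in Astrocyte nuclei (adjusted p = 0.00017), at 210 and 376 CPM against 11.1 and 9.90 CPM elsewhere. Foxo3 in Astrocyte nuclei was at 0.66 ± 0.15 (adjusted p = 0.022), with 82.5 and 135 CPM against 61.6 and 61.3 CPM.

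The other 3 were negative. Foxo1 in L5 IT nuclei was at -1.09 ± 0.16 (adjusted p = 0.0048), with 31.5 CPM in controls and 21.0 CPM after training, against 20.1 and 27.5 CPM in the other nuclei, which include the astrocytes. Within L5 IT nuclei alone the Foxo1 difference did not pass (-0.61 ± 0.18, adjusted p = 0.576). Vtn in Lamp5 nuclei was at -2.83 ± 0.63 (adjusted p = 0.014), with 9.46 and 1.42 CPM against 18.3 and 19.6 CPM, and control mouse 5 alone reached 20.1 CPM. Grb14 in Endothelial nuclei was at -1.55 ± 0.37 (adjusted p = 0.035), with 389 and 129 CPM against 60.9 and 58.4 CPM. Leaving out a mouse ended the call of Vtn (mouse 2, 4 or 5), of Grb14 (mouse 2, 5 or 6) and of Foxo3 (mouse 1, 5 or 6).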

How the results depend on the processing

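Over the alternatives run, no value changed sign while called. Pathway genes called for training numbered 2, and 5 without the low-count filter; leaving out each mouse gave 1 to 2. Interaction calls of members numbered 0, and 0 to 2 on leaving out a mouse, and those of pathway genes 6, with a range of 3 to 7. Activity calls of members numbered 6, with a range of 3 to 6, the fewest without mouse 3 or mouse 4. With doublets kept, Igf1r in Endothelial stood at 3152 CPM, Igfbp2 in VLMC at 419.8 CPM and Igfbp7 in Pericyte/SMC at 1872 CPM. Without thinning, shares of nuclei with a UMI were 83.1% (Igf1, Vip), 55.0% (Igfbp2, VLMC), 39.7% (Igfbp4, L6 CT), 6.94% (Igfbp5, Astrocyte) and 93.3% (Igfbp7, Pericyte/SMC). The cause was not tested. Over all settings, single genes crossed the threshold in 38 cases, in an unchanged direction. Control and trained mice share no numbers and were not paired with each other, while activity and interaction tests had mouse as a block. Counts under about 100 UMIs limit Igf2, Igfbp3 and the small classes.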
